A study of Rattus norvegicus with 6 samples.

Results

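The subject is a set of 9 Sox genes, Sox2, Sox3, Sox4, Sox5, Sox6, Sox8, Sox9, Sox10 and Sox11, in cultured rat cells of the oligodendrocyte lineage. They were taken by symbol, as Sox genes with known roles in glia, from a table of 37991 genes, by a rule that uses no measured value. Total RNA was sequenced from 3 libraries of differentiated cells and 3 libraries of oligodendrocyte precursors, all from SD rats. The differentiated cells had undergone a change of growth factors in Raff medium, and the precursors were taken before it, as the control. Replicates are numbered 1, 2 and 5 in each group, and the titles place replicates 1 and 2 at day 3 for differentiated cells and day 0 for precursors. No transgene, mutation or drug is named for either group, and the age of the animals and the way the precursors were purified are not stated in the labels. The labels do not say that replicates come from separate cultures or animals, and the p-values therefore reflect the scatter among these libraries alone, which may be technical.

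Sox proteins are transcription factors that bind and bend DNA through an HMG box, and they are grouped by the likeness of that box. The SoxE proteins carry most of the oligodendrocyte programme: Sox9 acts in the choice of a glial fate, Sox10 is needed for terminal differentiation and switches on myelin genes together with Myrf, and Sox8 overlaps in function with both. In mouse, the SoxD proteins Sox5 and Sox6 hold precursors back by interfering with Sox10 at myelin gene promoters. The SoxC proteins Sox4 and Sox11 are best known from immature neurons, and Sox4 delays myelination in mouse. The SoxB proteins Sox2 and Sox3 mark neural progenitors and are also active in precursors.

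The libraries held 55522101 to 79898629 reads, so that 1 CPM (counts relative to library size, scaled between libraries by TMM, the trimmed mean of M values) stood for 54.94 to 71.98 reads. All 9 genes passed the low-count filter, as did 17797 of the 37991 genes. The labels of the groups held against markers of myelinating oligodendrocytes, while the summed level of precursor markers did not separate the groups. The summed level of 6 markers of myelinating oligodendrocytes was 17410, 20538 and 20609 CPM in differentiated cells 1, 2 and 5, against 2068, 1307 and 1296 CPM in precursors 1, 2 and 5. Precursor markers (6 of 7 present) summed to 1280, 1527 and 1767 CPM in differentiated cells 1, 2 and 5, against 1222, 1665 and 2129 CPM in precursors 1, 2 and 5. Differentiated libraries thus kept RNA of precursor markers. Of these 6 markers, 0 were called by the edgeR test described below, beside 8.86% of all tested genes. With the replicate number as a block in that test, 2 were called higher in differentiated cells and 2 lower, beside 30.6%. The cultures also held RNA of other cell types. Astrocyte markers (8 of 8 present) summed to 8101 to 8407 CPM in differentiated cells and 4998 to 7012 CPM in precursors. Most of each sum was Gfap, and the list did not move as one. Means were lower in differentiated cells for Sparcl1 (655 CPM, against 985 CPM in precursors) and Slc1a2 (15.4 against 18.9 CPM). They were higher in differentiated cells for the other genes of the list. The same edgeR test called 3 of the 8 higher (Aldh1l1, Aldoc and Gja1) and 0 lower, beside 8.86% of all tested genes. With the block 6 were called higher and 1 lower, beside 30.6%. Microglia markers (7 of 7 present) summed to 585 CPM in differentiated replicate 1 and 313 to 325 CPM in the other differentiated libraries, against 848 CPM in precursor replicate 1 and 331 to 344 CPM in the other precursors. Fibroblast and pericyte markers (5 of 6 present, Rgs5 at 0) were likewise highest in the replicate 1 library of each group, at 59.9 CPM in differentiated cells and 79.9 CPM in precursors, and both replicate 1 libraries lay apart from the rest on the second principal component, which held 25.3% of the variance. In bulk RNA, fewer cells of a type and less RNA per cell cannot be told apart.

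Differentiated cells had more Sox10 and Sox8 RNA and less Sox4 and Sox11 RNA than the precursors of the same replicate number, in 3 of 3 pairs for each gene. Sox2 and Sox6 were lower in 3 of 3 pairs as well, by smaller folds, and Sox3, Sox5 and Sox9 changed direction between pairs. Sox2, Sox3, Sox5, Sox6 and Sox9 were not called by any test of this paragraph. Sox11 alone passed the test over all libraries (1 of 9 members, lower, beside 8.86% of all tested genes called in either direction). That test was edgeR's quasi-likelihood test with p-values adjusted over all 17797 genes by the Benjamini-Hochberg method and a threshold of 0.05. It called 0 members higher, while 3 members had an unadjusted p under 0.05, namely Sox8, Sox10 and Sox11. DESeq2 called 1 member higher, Sox10, and 1 lower, Sox11, beside 13.6% of all genes. With the replicate number added to the edgeR model as a block, which compares libraries within a number, Sox8 and Sox10 were called higher and Sox4 and Sox11 lower (4 of 9 members, beside 30.6% of all genes). The same 4 genes were called without both replicate 1 libraries, beside 17.0% of all genes. A count of 6 of 9 members with one direction in all 3 pairs stood beside 61.1% of all genes. A count of 2 of 9 with groups that did not overlap in CPM stood beside 30.3%, so neither share set the members apart.

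**Figure D1:**
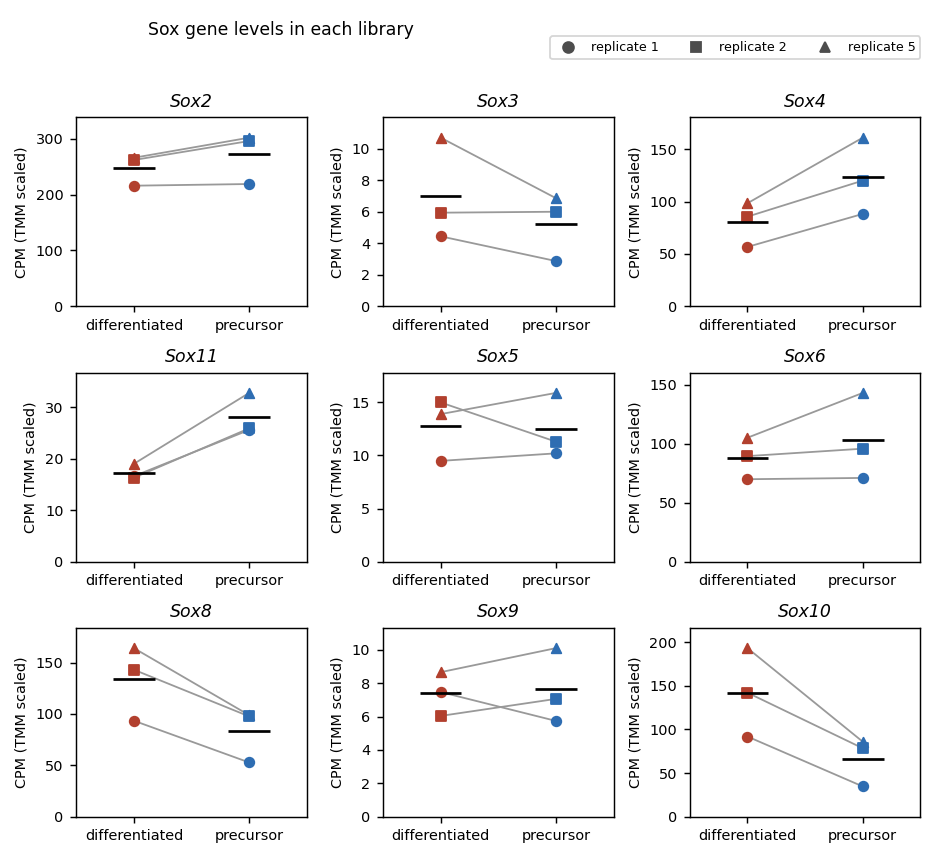
Level of each of the 9 Sox genes in CPM (vertical axis, from 0, a scale of its own in each panel) in the 3 differentiated and the 3 precursor libraries; grey lines join the libraries of one replicate number and black bars are group means. The lines of Sox10 and Sox8 are all higher at the differentiated end and those of Sox4 and Sox11 all lower, while replicate 1 is the lowest precursor library for all 9 genes.

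The replicates of a group differed from each other in a shared way. Precursor replicate 1 was the lowest precursor library for 9 of 9 members, and differentiated replicate 1 the lowest differentiated library for 7 of 9; among all tested genes the shares were 40.1% and 37.8%. Replicate 5 was the highest of both groups for 8 of 9 members, against 18.9% of tested genes. The same replicate 1 libraries carried the highest sums of microglia and fibroblast markers, though not the highest level of each gene. Cx3cr1 was lowest in precursor 1, at 4.89 CPM, against 8.23 and 9.24 CPM in precursors 2 and 5. Pdgfrb was highest in differentiated 5, at 12.4 CPM, against 10.8 CPM in differentiated 1. The part of those cells in the low Sox levels was not tested.

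Among the SoxE genes, Sox10, the factor required for terminal differentiation, was at 91.8, 142 and 193 CPM in differentiated cells 1, 2 and 5, against 34.7, 78.4 and 85.9 CPM in precursors 1, 2 and 5. In CPM the lowest differentiated library lay above the highest precursor library, but only just. In TPM, which corrects for transcript length, the groups overlapped, with differentiated 1 at 27.3 TPM and precursors 2 and 5 at 31.8 and 41.9 TPM. The means were 142 ± 50.4 CPM in differentiated cells and 66.3 ± 27.7 CPM in precursors (SD, n = 3 each), a log2 fold change of 1.10 with a standard error (SE) of 0.38 that missed the threshold (edgeR adjusted p = 0.14). With the replicate block the log2 fold change was 1.14, SE 0.11 (edgeR adjusted p = 0.00077), and within pairs Sox10 was 2.65-fold, 1.81-fold and 2.24-fold higher in replicates 1, 2 and 5. It was called by DESeq2 (adjusted p = 0.0253) and without both replicate 1 libraries (edgeR adjusted p = 0.00628). It was not called with library size scaling (log2 fold change 0.94, edgeR adjusted p = 0.223) or with no low-count filter (edgeR adjusted p = 0.228). Nor did limma on TPM call it (log2 fold change 0.85, adjusted p = 0.303). Single libraries left out gave log2 fold changes of 0.78 to 1.34 and edgeR adjusted p-values of 0.0787 to 0.37.

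Sox8, the SoxE partner that overlaps with Sox10 in function, was at 93.4, 143 and 164 CPM in differentiated cells 1, 2 and 5, against 52.8, 97.6 and 98.8 CPM in precursors 1, 2 and 5. Differentiated replicate 1 fell among the precursor values, so the groups overlapped. The log2 fold change was 0.68, SE 0.29 (edgeR adjusted p = 0.216). With the block it was 0.70, SE 0.07 (edgeR adjusted p = 0.00111), and within pairs Sox8 was 1.77-fold, 1.47-fold and 1.66-fold higher. Without both replicate 1 libraries its edgeR adjusted p was 0.0077. Single libraries left out gave log2 fold changes of 0.44, without precursor 1, to 0.89, and none of these fits called Sox8.

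Sox9, the SoxE factor of glial fate and of astrocytes, was low and showed no called difference. It was at 7.47, 6.04 and 8.66 CPM in differentiated cells 1, 2 and 5, against 5.74, 7.06 and 10.1 CPM in precursors 1, 2 and 5. The log2 fold change was -0.05, SE 0.26 (edgeR adjusted p = 0.94, and 0.934 with the block), and it was higher in 1 of 3 pairs. These levels stood beside 5702 to 6114 CPM of the astrocyte filament gene Gfap in differentiated cells and 3195 to 4812 CPM in precursors. The log2 fold change of Gfap was 0.54 (edgeR adjusted p = 0.0849, and 0.0138 with the block).

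**Figure D2:**
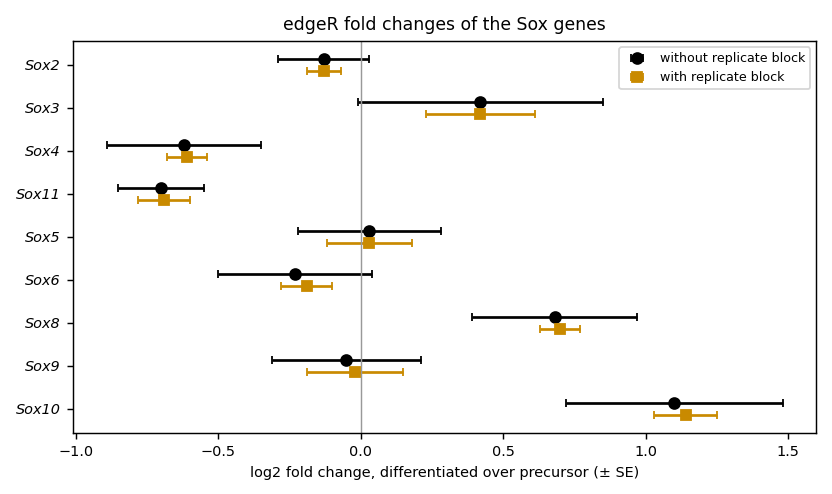
Log2 fold change of each Sox gene, differentiated over precursor (horizontal axis), with bars of ± 1 SE, from edgeR without the replicate block (black circles) and with it (ochre squares). The estimates barely differ between the fits, whereas the SE of Sox10 is 0.38 without the block and 0.11 with it.

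The SoxD genes did not pass in either fit. Sox6, which holds precursors back in mouse, was at 69.8, 89.4 and 105 CPM in differentiated cells 1, 2 and 5, against 70.9, 95.7 and 143 CPM in precursors 1, 2 and 5. The values were lower in 3 of 3 pairs, by 0.02 in replicate 1 and 0.10 in replicate 2 but by 0.44 in replicate 5 on the log2 scale, so most of the difference came from that pair. The log2 fold change was -0.23, SE 0.27 (edgeR adjusted p = 0.681, and 0.187 with the block). It was 0.08 without precursor replicate 5. Sox5, its close relative, was at 9.49, 15.0 and 13.9 CPM in differentiated cells 1, 2 and 5, against 10.2, 11.3 and 15.9 CPM in precursors 1, 2 and 5. These groups overlapped throughout, the log2 fold change was 0.03, SE 0.25 (edgeR adjusted p = 0.96), and its sign depended on the scaling.

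Sox6 is a known target of 2 microRNAs of differentiating oligodendrocytes, miR-219 and miR-338, described in rodents. Their mature rat sequences (RefSeq, build GRCr8) are shown with the seed, bases 2 to 8, in capitals, because the seed is what pairs with target RNAs.
rno-miR-219a-5p (chr3:33516561-33516581, minus strand): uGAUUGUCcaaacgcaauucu
rno-miR-338-3p (chr10:105796345-105796367, minus strand): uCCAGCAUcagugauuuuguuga
The seeds differ. Mature microRNAs were not measured here. The hairpin locus Mir219-2, looked up after its values were seen, had 90, 67 and 31 reads in differentiated cells 1, 2 and 5, against 21, 12 and 13 reads in precursors 1, 2 and 5. The groups did not overlap, and the log2 fold change of 2.07, SE 0.60, missed the threshold (edgeR adjusted p = 0.0834, and 0.0542 with the block), although DESeq2 and limma on TPM called it (adjusted p = 0.0172 by DESeq2 and 0.0141 by limma). The Mir338 locus had 2 to 9 reads a library and did not pass the filter.

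Sox4 and Sox11, the SoxC members, had lower values in differentiated cells in 3 of 3 pairs. Sox11, a factor of immature neurons and progenitors, fell to 16.6, 16.3 and 19.0 CPM in differentiated cells 1, 2 and 5, against 25.6, 25.9 and 32.8 CPM in precursors 1, 2 and 5. The groups did not overlap, and the spread within differentiated cells was small (17.3 ± 1.46 CPM, against 28.1 ± 4.1 CPM in precursors, SD, n = 3 each). The log2 fold change was -0.70, SE 0.15 (edgeR adjusted p = 0.0341, and 0.00235 with the block). The call was lost without differentiated 1 (0.0789), differentiated 2 (0.153), differentiated 5 (0.0849), precursor 2 (0.0838) or precursor 5 (0.1), and kept without precursor 1 (0.0392). It was also lost by limma on log2(TPM + 1) (adjusted p = 0.0665).

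Sox4, the other SoxC gene, was at 56.7, 85.6 and 98.4 CPM in differentiated cells 1, 2 and 5, against 88.2, 120 and 161 CPM in precursors 1, 2 and 5. Here the groups overlapped, since precursor replicate 1 lay below differentiated replicate 5, but each pair moved alike. Sox4 was 0.643-fold, 0.711-fold and 0.612-fold of its precursor level in replicates 1, 2 and 5. The log2 fold change was -0.62, SE 0.27 (edgeR adjusted p = 0.226), and with the block it was -0.61, SE 0.07 (edgeR adjusted p = 0.00142). Without both replicate 1 libraries its edgeR adjusted p was 0.0432. Single libraries left out gave log2 fold changes of -0.82 to -0.38, the last without precursor 5, and none of these fits called Sox4. Markers of neurons stood beside these genes: of 10 tested, 3 fell (Elavl4, Gap43 and Stmn2) and 1 rose (Elavl3), beside 8.86% of all tested genes called in either direction. Their summed level was 454 to 500 CPM in differentiated cells and 571 to 810 CPM in precursors. Markers of cell division fell too, 5 of 5, beside the same 8.86%, with sums of 461 to 509 CPM in differentiated cells and 802 to 941 CPM in precursors. The part of either in the lower SoxC levels was not tested.

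Of the SoxB genes, Sox2, the progenitor factor, was the most abundant member and was nearly level. It was at 216, 262 and 266 CPM in differentiated cells 1, 2 and 5, against 219, 296 and 302 CPM in precursors 1, 2 and 5. The groups overlapped, and the log2 fold change was -0.13, SE 0.16 (edgeR adjusted p = 0.678, and 0.176 with the block). With the block and library size alone as the scaling, a setting added after seeing the data, Sox2 passed (edgeR adjusted p = 0.0198, log2 fold change -0.27), as did Sox6 (edgeR adjusted p = 0.0463, log2 fold change -0.34), and that scaling moved the median of all genes to -0.181. Of 8 neural progenitor markers, 0 passed without the block, beside 8.86% of all tested genes. With it 4 fell (Nes, Vim, Fabp7 and Pax6), beside 30.6% of all genes called in that fit. Sox3, which acts beside Sox2 in progenitors, was at 4.44, 5.94 and 10.7 CPM in differentiated cells 1, 2 and 5, against 2.87, 6.0 and 6.86 CPM in precursors 1, 2 and 5. Its log2 fold change was 0.42, SE 0.43 (edgeR adjusted p = 0.626), and it was -0.02 without differentiated replicate 5.

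The span of Sox2 in RefSeq's assembly GRCr8 lies inside that of another gene, LOC103691527, which was looked up after seeing the data. LOC103691527 is listed as protein coding in the deposited table and as a long noncoding RNA in RefSeq. It was at 243, 267 and 274 CPM in differentiated cells 1, 2 and 5, against 94.5, 110 and 108 CPM in precursors 1, 2 and 5. It rose 2.51-fold (log2 fold change 1.33, SE 0.11, edgeR adjusted p = 0.000746), in 3 of 3 pairs by 2.57-fold, 2.43-fold and 2.54-fold, while Sox2 within it did not. The sources do not state the strand setting of the counting, and reads of both genes over shared bases cannot be told apart. Of the other members, Sox5 and Sox6 alone overlapped genes of that assembly, none of which was in the table.

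A promoter window, from 250 bases before to 50 bases after the gene's start, was at hand for 4 of the 9 members (RefSeq, build GRCr8). The windows of Sox11, the member that passed the test, and Sox2, the most abundant one, are shown so that the gene that fell can be set beside one with no call in either fit. Capitals mark matches, on either strand, to the CCAAT box, to the GC box, which reads GGGCGG, and to the core of a Sox site, which reads ACAAT.
Sox11 (chr6:49738745-49739044, minus strand): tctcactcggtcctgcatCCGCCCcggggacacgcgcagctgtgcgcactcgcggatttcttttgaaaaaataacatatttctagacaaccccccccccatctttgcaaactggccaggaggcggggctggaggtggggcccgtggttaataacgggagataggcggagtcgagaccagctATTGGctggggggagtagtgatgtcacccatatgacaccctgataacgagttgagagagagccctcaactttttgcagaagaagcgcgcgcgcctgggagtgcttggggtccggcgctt
Sox2 (chr2:119464881-119465180, plus strand): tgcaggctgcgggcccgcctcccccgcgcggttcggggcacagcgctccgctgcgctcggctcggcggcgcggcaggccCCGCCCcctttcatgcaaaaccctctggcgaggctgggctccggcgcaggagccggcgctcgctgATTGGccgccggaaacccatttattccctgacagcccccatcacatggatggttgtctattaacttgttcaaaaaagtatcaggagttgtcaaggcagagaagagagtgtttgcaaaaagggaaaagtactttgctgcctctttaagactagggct
Both windows held 1 match to the CCAAT box, 1 to the GC box and 0 to the Sox core. Sox11 also held 2 and Sox2 1 matches to the E-box CANNTG. Of all 33469 promoter windows, 37.5% held the CCAAT box, 33.1% the GC box, 33.7% the Sox core and 72.1% the E-box, on either strand. The CCAAT box was present in all 4 windows at hand, those of Sox3 and Sox6 included, and the Sox core only in that of Sox6, with 2 matches. Their GC contents were 58.0% for Sox11, 60.7% for Sox2, 62.0% for Sox3 and 42.0% for Sox6, against a median of 51.7% over all windows. A match is a description of these letters and not evidence of binding.

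Levels of different genes were compared in TPM, a relative unit that corrects for transcript length. Sox2 ranked first of the 9 members in each of the 6 libraries, at 77.6, 112 and 121 TPM in differentiated cells and 90.9, 145 and 178 TPM in precursors 1, 2 and 5. In differentiated cells Sox10 ranked second in each library, at 27.3, 50.1 and 72.8 TPM, followed in each by Sox8 at 24.0, 43.7 and 53.6 TPM, Sox4 at 10, 18 and 22.2 TPM and Sox11 at 6.85, 7.98 and 9.94 TPM. In precursors the order of Sox4, Sox8 and Sox10 changed between libraries. Sox4 ranked second in precursors 1 and 5, at 18.1 and 46.8 TPM, and Sox8 in precursor 2, at 34.2 TPM, while Sox10 was at 11.9, 31.8 and 41.9 TPM in precursors 1, 2 and 5, in the first of them below Sox11 at 12.2 TPM. Group means ± SD of these 3 genes overlapped in precursors (31.3 ± 14.5 TPM for Sox4, 30.5 ± 13.4 TPM for Sox8 and 28.5 ± 15.2 TPM for Sox10, n = 3), as did those of Sox10 and Sox8 in differentiated cells (50 ± 22.8 and 40.4 ± 15.1 TPM, n = 3). Sox6 followed, at 6.23 ± 1.64 TPM in differentiated cells and 9.07 ± 4.24 TPM in precursors, and Sox3, Sox5 and Sox9 were between 1.03 and 5.14 TPM in each library.

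The 9 genes summed to 154, 244 and 297 TPM in differentiated cells 1, 2 and 5, against 158, 270 and 355 TPM in precursors 1, 2 and 5. The TPM sum was lower in 3 of 3 pairs, whereas the CPM sum was higher in 3 of 3, at 566, 765 and 879 CPM in differentiated cells and 509, 739 and 856 CPM in precursors. A single RNA, Rn7sl1, took 34.2% to 38.7% of all TPM in differentiated cells and 24% to 32.8% in precursors, and its part in the lower TPM sums was not tested. Shares within the 9 genes do not depend on it. SoxE genes made up 34.2%, 39.0% and 43.3% of that sum in differentiated cells 1, 2 and 5, against 18.4%, 25.2% and 24.5% in precursors 1, 2 and 5. The groups did not overlap (exact two-sided permutation test, p = 0.1, the smallest that 3 against 3 allows), and the share was higher by 15.8, 13.8 and 18.8 percentage points in the pairs. SoxC genes made up 10.9%, 10.6% and 10.8% in differentiated cells, against 19.2%, 16.2% and 19.4% in precursors (exact p = 0.1). The SoxC share was thus the steadiest within differentiated cells, at 10.8% ± 0.149, against 18.3% ± 1.82 in precursors (SD, n = 3 each). SoxB genes made up 46.9% ± 4.36 in differentiated cells and 54.9% ± 3.52 in precursors (SD, n = 3 each, exact p = 0.2), and SoxD genes 3.44% ± 0.21 and 4.18% ± 0.506 (SD, n = 3 each, exact p = 0.1). A share can move because another member moved, so these 4 shares are not independent.

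**Figure D3:**
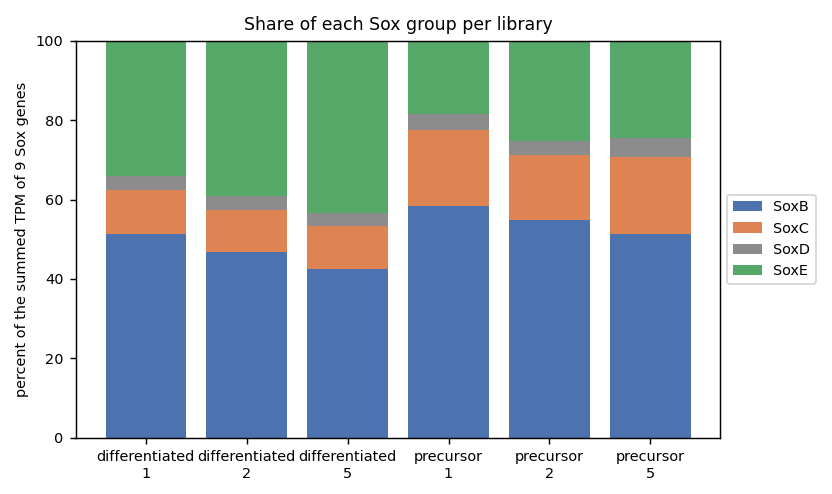
Share of the SoxB, SoxC, SoxD and SoxE genes in the summed TPM of the 9 members (vertical axis, percent) as stacked bars, 1 for each differentiated and precursor library. SoxE takes 34.2% to 43.3% in differentiated cells and 18.4% to 25.2% in precursors, and SoxC 10.6% to 10.9% and 16.2% to 19.4%.

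Ratios within a library do not depend on scaling between libraries, and 5 were computed. Sox10 over Sox9 was 17.7, 33.8 and 32 in differentiated cells 1, 2 and 5, against 8.69, 16.0 and 12.2 in precursors 1, 2 and 5. The groups did not overlap, and the log2 ratio was higher by 1.16 (3 of 3 pairs, exact two-sided permutation p = 0.1, adjusted over the 5 ratios 0.25). Sox8 over Sox10 was 0.88, 0.873 and 0.736 in differentiated cells, against 1.32, 1.08 and 0.994 in precursors. This ratio was lower in 3 of 3 pairs, by 0.58, 0.30 and 0.43 on the log2 scale, and its groups did not overlap either (difference -0.44, exact p = 0.1, adjusted 0.25). Sox4 over Sox11 was 1.46, 2.26 and 2.23 in differentiated cells, against 1.48, 2.0 and 2.11 in precursors, and overlapped (difference 0.08, exact p = 0.6). The groups also overlapped for Sox5 over Sox6 (difference 0.24, exact p = 0.3) and Sox2 over Sox3 (difference -0.54, exact p = 0.3). No ratio could go below an exact p of 0.1 in this design, and an exact sign-flip of the 3 pairs could not go below 0.25, the value it gave for Sox10 over Sox9, for Sox8 over Sox10 and for Sox2 over Sox3.

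**Figure D4:**
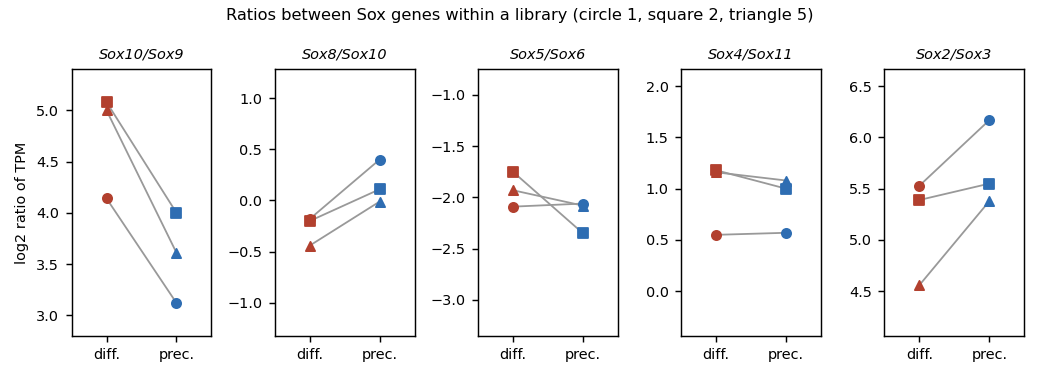
Log2 ratio of the TPM of 2 Sox genes within each library (vertical axis, a span of the same length in each panel), with differentiated libraries on the left and precursors on the right of a panel and grey lines joining replicate numbers. The Sox10/Sox9 lines are all higher at the differentiated end and the Sox8/Sox10 lines all lower, and Sox4/Sox11 lies nearly level.

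Of 9 other Sox genes in the table, 3 passed the filter and 0 were called, beside 8.86% of all tested genes. Sox21, a SoxB factor of progenitors, was at 26.9, 28.3 and 37.8 CPM in differentiated cells 1, 2 and 5, against 28, 35.3 and 38.5 CPM in precursors (log2 fold change -0.13, SE 0.18, edgeR adjusted p = 0.741). Sox13, the third SoxD gene, was at 4.1, 7.0 and 8.83 CPM in differentiated cells 1, 2 and 5, against 2.27, 4.54 and 4.65 CPM in precursors, and was called with the block (log2 fold change 0.80, SE 0.16, edgeR adjusted p = 0.0122, and 0.27 without it) and without both replicate 1 libraries (0.0459). Sox13 stood above its precursor level in each pair, while Sox5 did so in 1 pair and Sox6 in 0. Sox12, the third SoxC gene, was at 1.94 to 4.97 CPM in differentiated cells and 1.46 to 3.7 CPM in precursors (edgeR adjusted p = 0.729). Its values were higher in 3 of 3 pairs, by 1.33-fold, 1.13-fold and 1.34-fold, while those of Sox4 and Sox11 were lower in each. Sox7, Sox14, Sox15, Sox17, Sox18 and Sox30 had 0 to 31 reads a library and did not pass the filter, the endothelial factors Sox7, Sox17 and Sox18 among them. Of 5 endothelial markers, Cldn5 was at 0 in each library, but 4 passed the filter. Flt1 was the highest of these, at 12.9 to 26.5 CPM in differentiated cells and 10.2 to 36 CPM in precursors. The others that passed were near the floor, at 0 to 1.24 CPM in each library.

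Of 15 known targets of Sox10 in glia, 8 rose and 0 fell, beside 8.86% of all tested genes called, 7 did not pass, and the median log2 fold change was 1.91, beside -0.038 over all tested genes. Dusp15, a phosphatase gene that Sox10 activates in oligodendrocytes, rose to 121, 207 and 242 CPM in differentiated cells 1, 2 and 5, against 20.6, 20.5 and 25.4 CPM in precursors 1, 2 and 5 (log2 fold change 3.10, SE 0.27). Erbb3, a neuregulin receptor gene, rose to 58.7, 44.1 and 52.8 CPM in differentiated cells, against 9.9, 13.5 and 18.1 CPM in precursors (log2 fold change 1.91, SE 0.24). In both genes the groups lay far apart. Mag, Mbp, Gjb1 and Myrf were also among those that rose, with log2 fold changes between 3.13 and 4.28; the call of Myrf was lost without differentiated 2 (edgeR adjusted p = 0.107), differentiated 5 (0.114), precursor 1 (0.0702) or precursor 2 (0.118), and with no low-count filter (0.0789). With the block 11 rose and 2 fell, beside 30.6% of all genes called. S100b, a calcium-binding protein of glia, rose by 0.93 on the log2 scale in that fit (edgeR adjusted p = 0.001, and 0.12 without the block). Ednrb, an endothelin receptor, fell with the block, at -0.74 (edgeR adjusted p = 0.000407, and 0.107 without), as did Egr2, a factor of Schwann cells (0.0103, and 0.209 without).

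Partners and regulators of Sox factors did not move as a list. Of 30, 2 rose and 1 fell, a share near the 8.86% of all tested genes called, 27 did not pass, and the median log2 fold change was 0.01. With the block 5 rose and 5 fell, a share near the 30.6% of all genes. Nkx6-2, a homeobox factor of maturing oligodendrocytes, rose to 33.2, 46.1 and 48.0 CPM in differentiated cells 1, 2 and 5, against 6.06, 3.3 and 2.61 CPM in precursors (log2 fold change 3.41, SE 0.35, edgeR adjusted p = 0.00172). Hes5, a Notch effector that represses Sox10-driven myelin genes in mouse, rose to 11.6, 17.8 and 21.4 CPM in differentiated cells, against 2.78, 4.58 and 4.39 CPM in precursors (log2 fold change 2.11, SE 0.30, edgeR adjusted p = 0.00638). The groups of both genes lay apart. Pou3f2, a POU factor that works with Sox proteins, fell to 5.32, 5.11 and 7.64 CPM in differentiated cells, against 12.6, 10.6 and 11.6 CPM in precursors (log2 fold change -0.95, SE 0.21, edgeR adjusted p = 0.0357). With single libraries left out it stayed called only without differentiated 5 (0.0358), and the other 5 fits gave 0.075 to 0.157. The call was also lost without both replicate 1 libraries (edgeR adjusted p = 0.06) and by limma on TPM (0.0596). Olig2, the lineage factor upstream of Sox10, was at 138, 180 and 227 CPM in differentiated cells, against 97.7, 153 and 192 CPM in precursors, and was called with the block (edgeR adjusted p = 0.0182, and 0.574 in the fit lacking it, log2 fold change 0.33 with it), though not when library size was the scaling (0.133).

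Targets that Sox9 shares with Sox5 and Sox6 in cartilage included genes that rose in the edgeR fit without the block. That fit did not call these 3 Sox genes, and their part in the rise was not tested. Of 11 such genes with data, 9 were tested; 3 rose, 0 fell and 6 did not pass, beside 8.86% of all tested genes called, and the median log2 fold change was 0.99. Col11a2, a fibrillar collagen gene, rose to 159, 87.6 and 102 CPM in differentiated cells 1, 2 and 5, against 4.09, 3.79 and 4.99 CPM in precursors (log2 fold change 4.76, SE 0.27, edgeR adjusted p = 0.000265). Col9a1 and Col9a3, which encode chains of collagen IX, rose with log2 fold changes of 1.63, SE 0.29 (edgeR adjusted p = 0.016), and 0.99, SE 0.17 (edgeR adjusted p = 0.0131). Without differentiated 2 or differentiated 5, Col9a1 and Col9a3 lost the call, with edgeR adjusted p-values of 0.0527 to 0.0843, and 1 gene of the list rose. Col9a1 also lost it without precursor 2 (0.0549) and Col9a3 without precursor 5 (0.0548). Col2a1 and Hapln1, which define cartilage, did not pass the filter, with at most 0.328 CPM of Col2a1 in a library. Of 3 genes that Sox9 activates together with Nfia in developing glia, Mmd2 rose (log2 fold change 0.89, edgeR adjusted p = 0.0491) and Apcdd1 fell (-1.23, edgeR adjusted p = 0.0214). Both calls were lost without differentiated 2, when the edgeR adjusted p was 0.177 for Mmd2 and 0.0884 for Apcdd1, and in the fits without differentiated 1, differentiated 5, precursor 2 or precursor 5. Mmd2 also lost it with library size scaling (edgeR adjusted p = 0.121) and by limma on TPM (0.211).

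**Figure D5:**
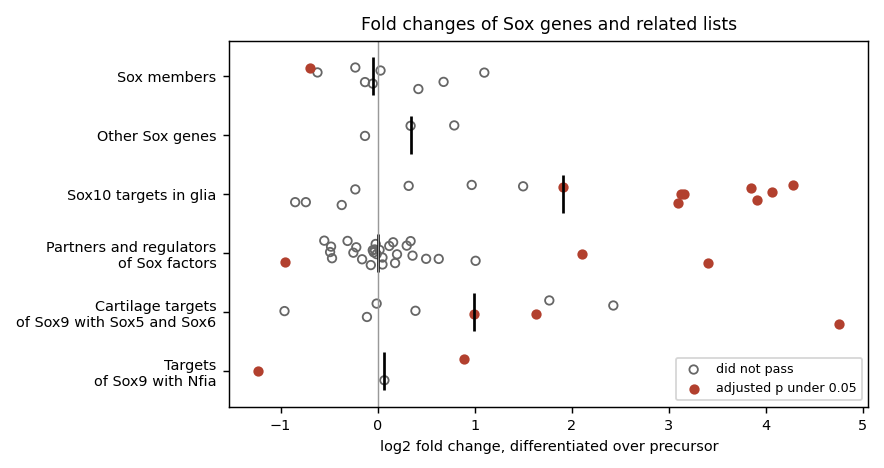
Log2 fold change, differentiated over precursor (horizontal axis), of each tested gene of the Sox set and of the lists of related genes, one list a row with vertical scatter for legibility; filled points passed the edgeR test, open points did not, and black lines are list medians. The median is -0.05 for the 9 Sox genes, 1.91 for Sox10 targets and 0.01 for partners and regulators.

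The genes with profiles most like each member were found among 9875 tested genes with a mean of at least 10 CPM, by the root mean square difference of log2 CPM centred on each gene's own mean over the 6 libraries. Dll3, Gabbr1 and Neo1 lay nearest to Sox10, at 0.126, 0.136 and 0.168 log2 units, where Sox10 itself varied by 0.766 about its mean. Pcbp4, Lrrc4b and C1ql1 lay nearest to Sox8, at 0.084 to 0.1 of a spread of 0.519. Spata13, Iqgap3 and RGD1561931 lay nearest to Sox11, at 0.052 to 0.056 of 0.364, and Rab6b, Pole and Vcan nearest to Sox4, at 0.055 to 0.062 of 0.460. Efs lay nearest to Sox3, at 0.129 of a spread of 0.528. For the other members the nearest genes were Wwc1 for Sox2, Nwd1 for Sox5, Farp1 for Sox6 and Ttc28 for Sox9, at 0.025 to 0.076. Likeness over 6 libraries reflects what these libraries share, depth and replicate number included.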

How the data were processed

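The authors deposited 1 table for the series with read counts, FPKM and TPM of each gene in each of the 6 libraries. Per the submitters' processing notes, the tools were StringTie 2.1.3b, HISAT2 2.1.0, Trimmomatic 0.38 and bcl2fastq 2.20.0; the notes name the human build GRCh38 although the identifiers are rat, so no coordinates come from the table. The deposited read counts are whole numbers and not normalized. The deposited FPKM and TPM values, scaled by the authors for transcript length, served for ratios and levels between genes. Counts were tested with edgeR 4.0.16 in R 4.3.3 (TMM scaling, low-count filter, robust quasi-likelihood test), differentiated against precursor, 3 against 3, after the code was tested on simulated data. The SE is the log2 fold change divided by the square root of F. DESeq2 1.42.0 and limma 3.58.1 (log2 of TPM plus 1) were alternatives, as were other scalings and filters and leaving out libraries.

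The titles number replicates 1, 2 and 5 in both groups. Deviations from the group means correlated at 0.421, 0.197 and 0.272 across genes for the same number. For different numbers the values ran from -0.308 to 0.105, with 0.105 and 0.0987 between replicates 2 and 5. On that ground same-numbered libraries were treated as pairs, since no label says so. The pairing thus rests on the counts that the block fit then tested, so the p-values with the block are not independent of it. Of the identifiers, 29216 matched RefSeq's GRCr8 table, all 9 members among them. The members, lists and tests were chosen with earlier results of these data known. Genes named are all Sox genes in the table, called genes of the target and partner lists, any counted singly and the 3 nearest profiles of a member. Dusp15, Erbb3, S100b, Olig2, Gfap, Sparcl1, Slc1a2, Cx3cr1, Pdgfrb, Flt1, LOC103691527 and Mir219-2 were named after their values were seen. By the rule, called genes of each list (at most 6 a direction) were to be named; most marker lists are given by their counts and sums alone, and some Sox10 targets are not reported singly here.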

Additional observations from a re-analysis of the deposited data

How the results depend on the processing

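The number of Sox members called depended on the fit. The count over all genes moved with the fit too. With the replicate block 2 members were higher and 2 lower (30.6% of all genes called), and likewise without both replicate 1 libraries (17.0%). With the block and library size scaling together, chosen after seeing the data, 2 were higher and 4 lower. That fit called 1694 genes higher and 4263 lower of all 17797. DESeq2 called 1 member higher (13.6% of all genes). By limma on TPM 0 were lower, beside 487 genes higher and 1000 lower of all 17797. Leaving out single libraries gave 0 members higher and 0 to 1 lower, beside 456 to 911 genes higher and 162 to 579 lower of all 17797. The log2 fold changes gained a call under the block for Sox4 (-0.61), Sox8 (0.70) and Sox10 (1.14), without both replicate 1 libraries for the same 3 (-0.61, 0.65 and 1.03), with DESeq2 for Sox10 (1.09), and with the block and library size scaling for Sox2 (-0.27), Sox4 (-0.76), Sox6 (-0.34), Sox8 (0.55) and Sox10 (0.99). Sox11 lost its call by limma on TPM (-0.88). With library size scaling the median over all genes was -0.188, and on TPM -0.172.

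Signs changed for small values. Leaving out single libraries gave -0.78 to -0.58 for Sox11, -0.02 to 0.67 for Sox3, -0.12 to 0.24 for Sox5, -0.45 to 0.08 for Sox6, -0.23 to 0.20 for Sox9, -0.07 to 0.67 for Sox12 and -0.08 to 0.29 for Sox4 over Sox11. Sox5 was at -0.12 with library size scaling, with or without the block, and at -0.15 on TPM. FPKM and a pseudocount of 1 TPM left the direction of each ratio as it was.

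Among Sox10 targets, 2 fell in each fit with the block and when both replicate 1 libraries were left out, and 1 fell with DESeq2. Among partners and regulators, 5 rose and 5 fell with the block, 8 fell with the block and library size scaling, 2 fell without both replicate 1 libraries, with DESeq2 and with library size scaling, and 0 to 1 with single libraries left out. Among cartilage genes, 1 rose on TPM and 1 to 3 with single libraries left out. The cause of these changes was not tested. Precision at low depth bears on Sox12, with 93 to 273 reads a library, Sox13, with 145 to 485, and Sox3, with 183 to 587.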
